A study of Mus musculus with 8 samples.

Results

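Caspase-1 cuts and activates several cytokines of the interleukin-1 (IL-1) family, and the genes described here are Casp1, its neighbour Casp4, and 8 cytokine and receptor genes of that family: Il18, Il1rn, Il1r1, Il1r2, Il1rap, Il1rl1, Il18r1 and Il18rap. They were read by gene symbol from the log2 expression values of 8 Affymetrix arrays. Each gene was represented by its brightest transcript cluster, the array's unit of measurement for a gene, judged by the mean over all 8 arrays. Of the 10 listed genes, 9 had such a cluster, among 22180 genes in all, and Il1rl1, which encodes the IL-33 receptor, was not analysed here. The clusters were thus chosen by their mean level, which enters no comparison between groups, but the genes were listed with earlier results of these arrays known, so the tests below are not independent of that choice.

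The cells came from spleens of C57BL/6 mice, 6 to 8 weeks old, and were CD4+CD25- T cells that a sorter had divided by CD45RB, a surface protein that is high on naive cells and lower on many antigen-experienced ones. There were 4 groups with 2 arrays each: CCR2-/- CD45RBlow, CCR2-/- CD45RBhigh, wild-type CD45RBlow and wild-type CD45RBhigh. CCR2-/- mice lack the receptor for the chemokine CCL2 in every cell. Cells of all groups were activated with antibodies to CD3 and CD28, for 48 h according to the sample protocols and for 2 h according to the series design, and no unstimulated cells were measured. No label says how many mice gave the cells of an array or whether the arrays of a group came from separate mice. The Xist values given below differed between the 2 arrays of each group. The p-values cover no more than the variation among these 8 arrays.

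IL-1 alpha, IL-1 beta, IL-18 and IL-33 signal through related receptors that pair with an accessory chain and recruit the adaptor MyD88, which leads to NF-kappa-B. IL-1 beta and IL-18 are made as inactive precursors and are cut by caspase-1 inside inflammasomes. The system is best known from macrophages, but CD4 T cells carry several of the receptors, and IL-1 and IL-18 act on helper T cells that produce IL-17 or interferon gamma. IL-1 signalling is held back by a decoy receptor, encoded by Il1r2, and by a receptor antagonist, encoded by Il1rn.

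Promoter sequences are shown for Casp1 and Il1r2, the members that passed a test, and for Casp4, the caspase gene next to Casp1. They are RefSeq windows of build GRCm38.p6 from 250 bases before to 50 bases after the transcript start, all on the plus strand: chr9:5298267-5298566 for Casp1, chr9:5308599-5308898 for Casp4 and chr1:40085843-40086142 for Il1r2. Capitals mark every match, on either strand, to 5 motifs: the core of the interferon-stimulated response element, TTCNNNGAA (STAT), TGANTCA (AP-1), a core NF-kappa-B site and CACGTG (E-box). The E-box was added after the sequences had been seen.
Casp1: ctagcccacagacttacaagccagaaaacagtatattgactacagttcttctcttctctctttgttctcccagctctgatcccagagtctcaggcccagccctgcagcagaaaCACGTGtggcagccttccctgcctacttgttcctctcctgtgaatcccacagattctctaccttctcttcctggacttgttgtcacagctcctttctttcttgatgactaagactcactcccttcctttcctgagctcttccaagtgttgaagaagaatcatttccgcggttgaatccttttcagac
Casp4: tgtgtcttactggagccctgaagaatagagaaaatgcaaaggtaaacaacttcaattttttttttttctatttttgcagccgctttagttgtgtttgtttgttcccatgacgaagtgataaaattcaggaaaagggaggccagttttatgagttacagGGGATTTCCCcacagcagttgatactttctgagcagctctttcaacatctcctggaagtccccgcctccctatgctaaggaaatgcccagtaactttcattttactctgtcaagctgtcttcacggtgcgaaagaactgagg
Il1r2: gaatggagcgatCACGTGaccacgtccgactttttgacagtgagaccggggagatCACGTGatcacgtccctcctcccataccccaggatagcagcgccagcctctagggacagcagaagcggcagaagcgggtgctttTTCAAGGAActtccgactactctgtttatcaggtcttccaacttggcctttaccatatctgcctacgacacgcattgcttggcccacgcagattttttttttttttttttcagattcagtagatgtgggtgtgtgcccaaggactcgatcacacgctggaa
The Casp1 window held 1 CACGTG, which began 137 bases before the start, and no match to the other motifs. The Il1r2 window held CACGTG at 238 and at 195 bases before the start and a STAT motif at 111 bases before it. The Casp4 window, the first of 2 that RefSeq lists, held 1 NF-kappa-B motif, 92 bases before the start. No matches overlapped. Of all 32851 promoter windows of this length, 7.15% held CACGTG, 8.3% the STAT motif, 4.01% the NF-kappa-B motif, 7.81% the AP-1 motif and 3.44% the interferon element. A match describes the letters and shows no binding.

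Array medians ran from 4.92 to 5.05 (log2), and across clusters the correlation within a group was r = 0.984 to 0.994. Replicate numbers 1 and 2 differed in Xist, a transcript of the inactive X chromosome of females. It lay at 4.45 to 5.02 on replicate 1 arrays and at 11.7 to 12.1 on replicate 2 arrays. Kdm5d, a gene of the Y chromosome, lay at 8.83 to 9.13 on replicate 1 arrays and at 7.58 to 7.78 on replicate 2 arrays. By Xist, replicate 2 arrays held cells of females and replicate 1 arrays held few or none. The 2 arrays of a group thus did not come from the same set of mice. All groups were balanced in this respect. Ccr2 itself was dim in all groups, at 4.62 to 5.15 on CCR2-/- arrays and at 4.26 to 4.61 on wild-type arrays, and since the position of its probes is not given, it does not check the genotype labels. The 4 measured CD4 T cell markers averaged 11.2 to 11.4 on all arrays. A cluster counted as tested when it reached an array's 40th percentile, at 4.53 to 4.63 on the log2 scale, on at least 2 arrays.

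Of the 9 genes measured, 7 passed this filter, among 13508 genes tested. Il18 passed it on 4 arrays, while Il1r1 and Il18rap reached it on 1 array each and were not tested. Averaged over both genotypes, 2 of the 7 tested genes, Il1r2 and Casp1, had more transcript in CD45RBlow than in CD45RBhigh cells at an adjusted p under 0.05, and none had less. In this comparison 3.03% of all tested genes passed, 1.10% upward and 1.93% downward. The median log2 difference was 0.38 over the 7 members and -0.01 over all tested genes. In no genotype comparison did a member pass, and neither did any other gene. The plot of levels by array shows the 9 genes.

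**Figure D1:**
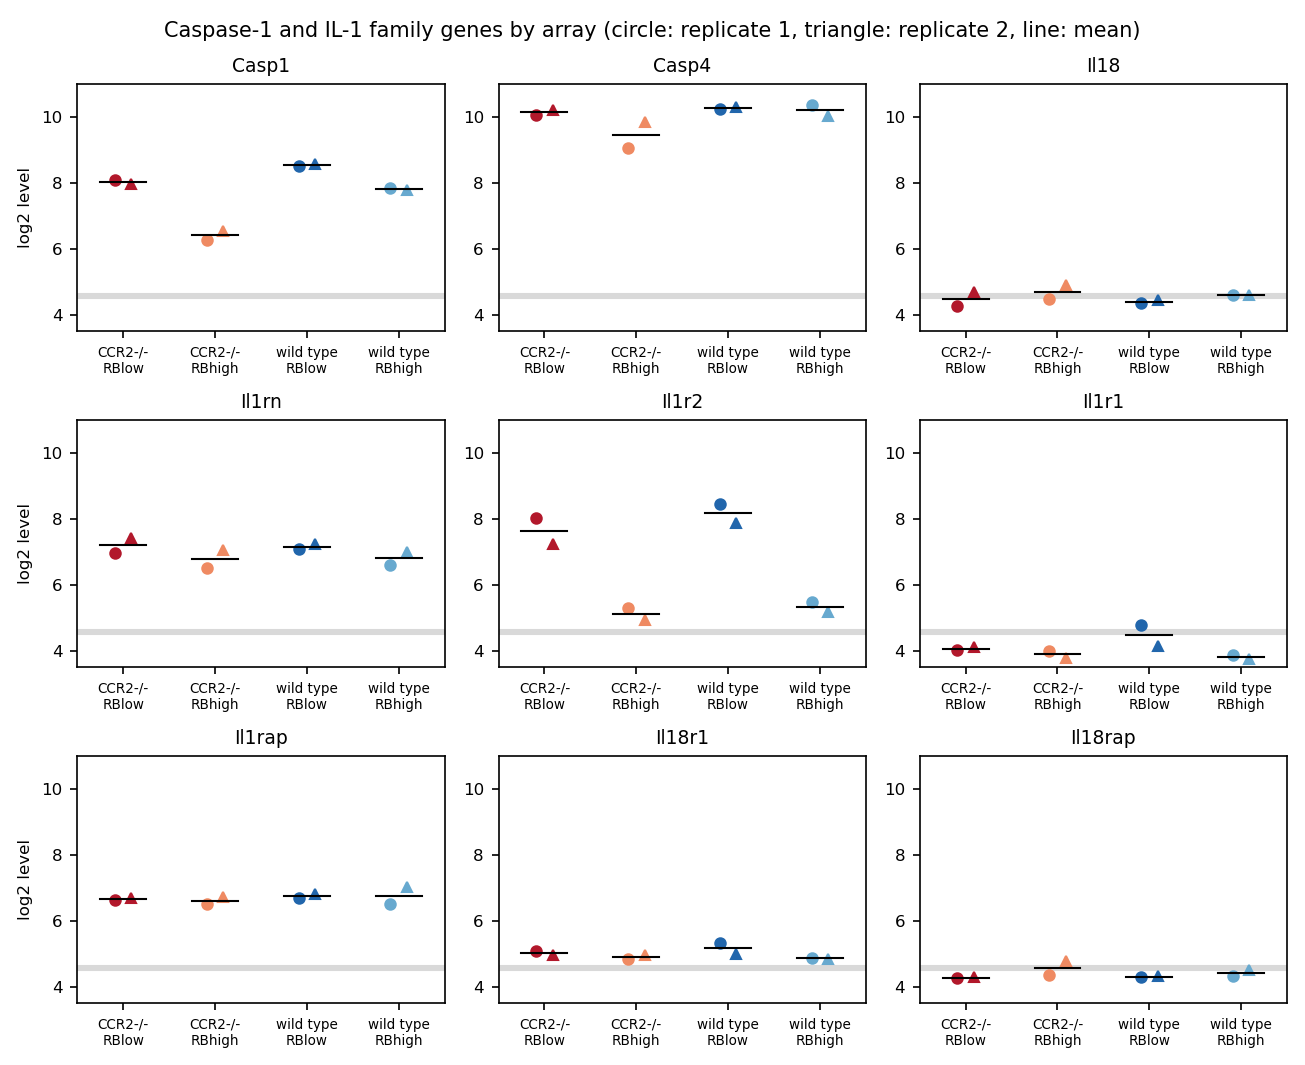
Log2 level (vertical axis) of 9 genes on each array of the CCR2-/- CD45RBlow, CCR2-/- CD45RBhigh, wild-type CD45RBlow and wild-type CD45RBhigh groups, with circles for replicate 1, triangles for replicate 2, black lines for means of 2 arrays and a grey band for the 40th percentile of the arrays (4.53 to 4.63). Casp1 and Il1r2 were higher on all CD45RBlow arrays than on all CD45RBhigh arrays, Casp1 was lowest in CCR2-/- CD45RBhigh cells, and Il18, Il1r1 and Il18rap lay near or under the band.

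On these arrays Casp1 was highest in wild-type CD45RBlow and lowest in CCR2-/- CD45RBhigh cells. It stood at 8.10 and 7.98 on the log2 scale on the CCR2-/- CD45RBlow arrays, against 6.28 and 6.56 on the CCR2-/- CD45RBhigh arrays. In wild-type cells it stood at 8.52 and 8.59 on the CD45RBlow arrays, against 7.87 and 7.80 on the CD45RBhigh arrays. Thus every CD45RBlow array lay above every CD45RBhigh array. No 2 of the 4 groups overlapped either. The share of tested genes that keep all groups apart was not counted, so whether this is unusual is not known. A separation of the subsets was shown by 14.3% of tested genes, 6.13% with the CD45RBlow arrays higher and 8.13% with them lower. Among the 7 tested members Casp1 and Il1r2 showed it, both upward. Il1r1 and Il18rap, which were not tested, showed it upward and downward, by small gaps. For Il18rap the nearest arrays were at 4.318 (CD45RBlow) and 4.322 (CD45RBhigh). From high to low, the group means were 8.55 ± 0.05 in wild-type CD45RBlow, 8.04 ± 0.09 in CCR2-/- CD45RBlow, 7.83 ± 0.04 in wild-type CD45RBhigh and 6.42 ± 0.19 in CCR2-/- CD45RBhigh cells (SD, n = 2 each).

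The averaged difference of Casp1 between CD45RBlow and CD45RBhigh cells was 1.17 on the log2 scale, or 2.25-fold (95% interval 0.96 to 1.38, adjusted p = 0.0032), and it passed under each of the other settings and without any single array. In CCR2-/- cells the difference was 1.62, or 3.07-fold (interval 1.32 to 1.91, adjusted p = 0.0121), in a comparison where 0.333% of tested genes passed, 0.141% upward and 0.192% downward. This call was lost without CCR2-/- CD45RBlow replicate 1 (adjusted p = 0.115) or replicate 2 (adjusted p = 0.0561). In wild-type cells the difference was 0.72, or 1.65-fold (interval 0.42 to 1.02, adjusted p = 0.121), and with array weights its adjusted p was 0.0276, the lowest under the alternatives, among which it reached 0.895. The difference between these subset effects, 0.90 (interval 0.48 to 1.32), did not pass (adjusted p = 0.99978), although no other of the 13508 genes had a smaller unadjusted p for it (0.0013).

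The low level of Casp1 in CCR2-/- CD45RBhigh cells also appeared between the genotypes. In CD45RBhigh cells Casp1 differed by -1.42 (interval -1.71 to -1.12), that is, its level in CCR2-/- cells was 2.67-fold under that in wild type, with an adjusted p of 0.0934. In CD45RBlow cells the difference was -0.52 (interval -0.81 to -0.22, adjusted p = 0.99983). Averaged over the subsets it was -0.97 (interval -1.18 to -0.76, adjusted p = 0.119). In the averaged comparison and in CD45RBhigh cells Casp1 had the smallest unadjusted p of all tested genes, 8.84e-06 and 6.92e-06, but 0 genes passed limma's test after adjustment in either, while 521 and 354 genes had an unadjusted p under 0.05. The adjusted p for CD45RBhigh cells ran from 0.0544, with each array centred on its median, to 0.99972, without wild-type CD45RBhigh replicate 1.

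Casp4, which encodes mouse caspase-11, a sensor of bacterial lipopolysaccharide that cleaves gasdermin D, lies next to Casp1 on chromosome 9. It was at 10.1 and 10.2 on the CCR2-/- CD45RBlow arrays, against 9.07 and 9.86 on the CCR2-/- CD45RBhigh arrays. The wild-type values were 10.2 and 10.3 on the CD45RBlow arrays, against 10.4 and 10.0 on the CD45RBhigh arrays. Groups overlapped between subsets, and the lowest values were those of CCR2-/- CD45RBhigh cells, as for Casp1. The difference between subsets was 0.69 in CCR2-/- cells (interval 0.10 to 1.27, adjusted p = 0.313) and 0.07 in wild-type cells (adjusted p = 0.979), and the genotypes differed by -0.74 in CD45RBhigh cells (interval -1.33 to -0.16, adjusted p = 1). The averaged difference between subsets was 0.38 (adjusted p = 0.320). It was 0.18 without CCR2-/- CD45RBhigh replicate 1, the lowest array (adjusted p = 0.443), and 0.58 without replicate 2 of that group (adjusted p = 0.0451). Leaving out each of the other arrays gave adjusted p-values up to 0.588.

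Both caspase genes are known to be induced by interferons in macrophages, and interferon-response genes varied among these arrays. The 22 measured interferon-response genes averaged 5.93 and 6.20 on the CCR2-/- CD45RBlow arrays, against 6.18 and 8.10 on the CCR2-/- CD45RBhigh arrays. In wild-type cells they averaged 5.86 and 6.05 on the CD45RBlow arrays, against 7.0 and 7.77 on the CD45RBhigh arrays. Their median difference between subsets was -1.08. Oas2, an antiviral oligoadenylate synthetase, was the 1 member that passed (-0.63, adjusted p = 0.0223). This count is no result about the list, since 1.93% of all tested genes fell. Oas2 reached the filter on 4 arrays only, and its CD45RBlow values of 4.31 to 4.49 lay under it. The CCR2-/- CD45RBhigh arrays, the 2 lowest in Casp1, differed by 1.91 between replicates in this mean, and replicate 1 of that group had the lower Casp1 at an interferon mean close to those of the CD45RBlow arrays. The 5 measured B cell markers averaged 5.39 on CCR2-/- CD45RBhigh replicate 1 and 5.14 on wild-type CD45RBhigh replicate 1, and between 4.39 and 4.54 on the other arrays. The 5 markers of NK and CD8 T cells averaged 4.94 to 4.97 on CD45RBlow arrays and 5.18 to 5.44 on CD45RBhigh arrays, with no overlap. Among them Cd8b1, a chain of the CD8 co-receptor, was at 6.97 to 7.38 on CD45RBlow arrays and at 7.76 to 8.78 on CD45RBhigh arrays (difference -0.92, adjusted p = 0.0776), and it was highest on CCR2-/- CD45RBhigh replicate 1, the array lowest in Casp1. Cd8a was at 4.39 to 4.63 on CD45RBlow arrays and at 4.51 to 4.91 on CD45RBhigh arrays, so that the subsets overlapped. The other markers of this list, Klrk1, Ncr1 and Klrb1c, overlapped too, and Ncr1 and Klrb1c were under the filter on all arrays and were not tested. Thus Cd8b1 alone separated the subsets, and the list mean does not show that NK and CD8 T cell markers differed as a set. The part of the genes in these 3 lists in the Casp1 values was not tested.

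**Figure D2:**
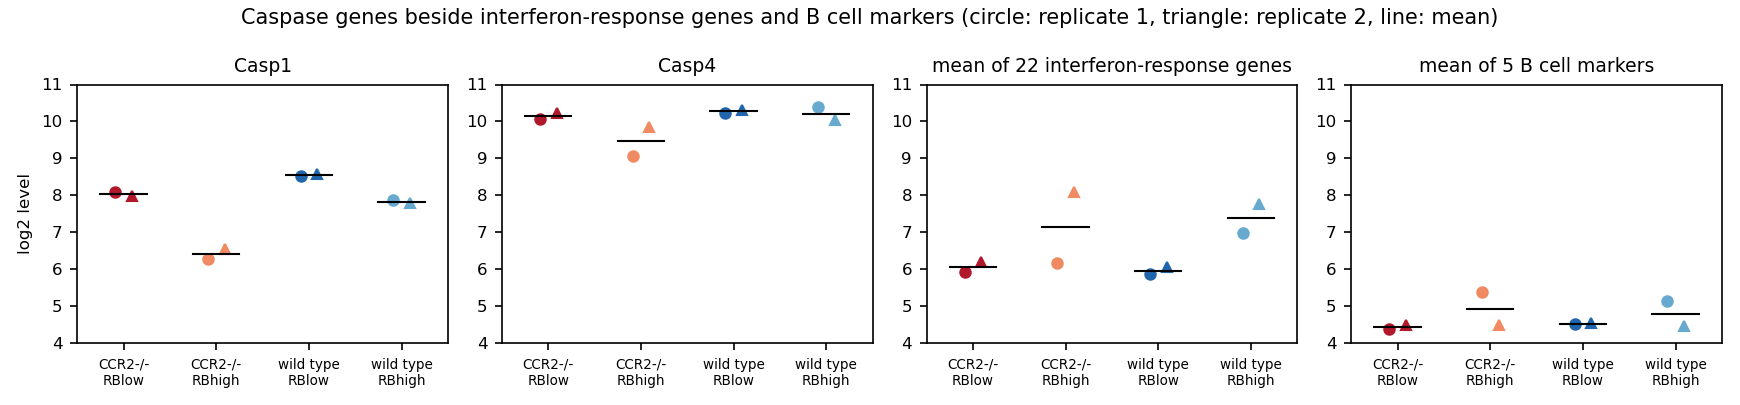
Log2 level (vertical axis) of Casp1 and Casp4 and the mean log2 level of 22 interferon-response genes and 5 B cell markers on each array of the 4 groups, with circles for replicate 1, triangles for replicate 2 and black lines for means of 2 arrays. The CCR2-/- CD45RBhigh arrays were lowest for Casp1 at 6.28 and 6.56, while their interferon means were 6.18 and 8.10.

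The genes whose pattern over the 8 arrays was most like that of Casp1 were Nufip2 (Pearson r = 0.980), Ptpn4, a protein tyrosine phosphatase (r = 0.973), and Pitpna, a phosphatidylinositol transfer protein (r = 0.961). Of these, Ptpn4 rose in CD45RBlow cells (log2 difference 0.54, adjusted p = 0.0354), while Nufip2 differed by 0.28 (adjusted p = 0.0860) and Pitpna by 0.13 (adjusted p = 0.401).

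The cytokine that caspase-1 activates and its receptor were dim. Il18 lay at 4.27 and 4.69 on the CCR2-/- CD45RBlow arrays, 4.49 and 4.89 on the CCR2-/- CD45RBhigh arrays, 4.37 and 4.44 on the wild-type CD45RBlow arrays and 4.62 and 4.59 on the wild-type CD45RBhigh arrays, so that the groups overlapped. Within an array these levels ranked from percentile 27.8 to percentile 47.0, and the difference between subsets was -0.21 (interval -0.51 to 0.09, adjusted p = 0.466). Il18r1, the ligand-binding chain of the IL-18 receptor, was at 4.97 to 5.34 on CD45RBlow arrays and at 4.85 to 4.98 on CD45RBhigh arrays, with a difference of 0.21 (interval -0.02 to 0.44, adjusted p = 0.313). Il18rap, the signalling chain of that receptor, was at 4.26 to 4.32 on CD45RBlow arrays and at 4.32 to 4.78 on CD45RBhigh arrays and was not tested. Without the filter on low values it differed by -0.20 (interval -0.44 to 0.05, adjusted p = 0.511). Il18bp, the secreted inhibitor of IL-18, was at 6.62 to 6.91 on all arrays. Within replicate numbers both genes were lower in CD45RBlow cells in all 4 pairs, with log2 differences of -0.25 to -0.16 for Il18 and of -0.48 to -0.04 for Il18rap, and neither passed.

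Il1r2, the decoy receptor that binds IL-1 without signalling, had the largest difference among the members. It was at 8.03 and 7.24 on the CCR2-/- CD45RBlow arrays, against 5.31 and 4.94 on the CCR2-/- CD45RBhigh arrays. In wild-type cells it was at 8.46 and 7.89 on the CD45RBlow arrays, against 5.48 and 5.18 on the CD45RBhigh arrays. All CD45RBlow arrays lay at least 1.77 above all CD45RBhigh arrays, and within each group replicate 1 was the higher. Averaged over the genotypes the difference was 2.68, or 6.41-fold (interval 2.19 to 3.17, adjusted p = 0.0032), and 7 of 13508 genes had a larger increase. This call held under each of the other settings and without any single array.

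Within the genotypes, Il1r2 rose by 2.51 in CCR2-/- CD45RBlow cells (5.71-fold, interval 1.81 to 3.21, adjusted p = 0.0307) and by 2.85 in wild-type CD45RBlow cells (7.20-fold, interval 2.15 to 3.55, adjusted p = 0.0298). In the wild-type comparison 0.0888% of tested genes passed, 0.0444% upward and 0.0444% downward. The call in CCR2-/- cells was lost with array weights (adjusted p = 0.0926), without either CCR2-/- CD45RBlow array (0.192 without replicate 1 and 0.0561 without replicate 2), without either CCR2-/- CD45RBhigh array (0.0534 and 0.0528) and without either wild-type CD45RBlow array (0.0580 and 0.0576). The call in wild-type cells was lost without either wild-type CD45RBlow array (0.412 and 0.0790) and without either wild-type CD45RBhigh array (0.107 and 0.249). The difference between the genotypes' subset effects was -0.34 (interval -1.32 to 0.65, adjusted p = 0.99978). The genotypes differed by -0.54 in CD45RBlow cells (interval -1.24 to 0.16, adjusted p = 0.99983) and by -0.20 in CD45RBhigh cells (interval -0.90 to 0.50, adjusted p = 1).

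The genes most like Il1r2 over the 8 arrays were Il10, an anti-inflammatory cytokine (r = 0.992), Maf, a transcription factor of helper T cells (r = 0.991), and Prdm1, a transcriptional repressor of effector cells (r = 0.990). All 3 passed between subsets, with log2 differences of 3.58, 2.54 and 1.67. They were picked for their likeness to Il1r2, which itself separated the subsets, so this is no separate result. Many genes of the regulatory T cell and Th2 lists were also higher in CD45RBlow cells, where 1.10% of all tested genes rose. The regulatory T cell list includes Il10 and the Th2 list includes Maf. The 11 regulatory T cell genes averaged 7.48 to 8.43 on CD45RBlow arrays and 6.54 to 6.76 on CD45RBhigh arrays, with 6 members higher, among them Foxp3 (3.05) and Ikzf2 (2.49), and 0 lower. Of the 5 that did not pass, Tnfrsf4 differed by -0.04 and Tnfrsf18 by -0.16, the second lower on all CD45RBlow arrays (adjusted p = 0.291). The 9 Th2 genes averaged 8.37 to 8.98 on CD45RBlow arrays and 6.64 to 7.32 on CD45RBhigh arrays, with 8 higher, among them Il4 (1.89), and 0 lower. Of 8 tested Th17 genes 3 were higher, the transcription factor Ahr, the IL-23 receptor gene Il23r and the cytokine gene Il21, and 0 lower. The others, Il17a, Il17f, Il22, Ccr6 and Rora, did not pass. Il23r reached the filter on 4 arrays only, and its CD45RBhigh values of 4.12 to 4.40 lay under it. Of 7 Th1 genes Cxcr3 was higher and Stat4 lower. In such bulk samples, more cells of a type and more RNA per cell cannot be told apart, and the part of these cells in the Il1r2 values was not tested. The cells had been sorted as CD25- before the stimulation, and CD25 is a protein that most regulatory T cells carry. How many regulatory T cells were left was not measured.

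Il1r2 and Il1rn are also strongly expressed by neutrophils and macrophages. Of the 6 measured macrophage and monocyte markers, Csf1r, Lyz2, Adgre1, Cd14 and Fcgr1 were under the filter on all arrays and Cd68 was above it at 6.88 to 7.54 on CD45RBlow arrays and at 7.16 to 8.55 on CD45RBhigh arrays. The list averaged 4.58 to 4.72 on CD45RBlow arrays and 4.61 to 4.95 on CD45RBhigh arrays. Of the 7 neutrophil markers, S100a8, Csf3r, Mpo, Elane and Cxcr2 were under the filter on all arrays. S100a9 reached it on 8 arrays, at 4.95 to 5.27 on CD45RBlow arrays and 4.69 to 5.20 on CD45RBhigh arrays. Ly6g reached it on 7 arrays, at 4.71 to 5.14 on CD45RBlow arrays and 4.42 to 4.97 on CD45RBhigh arrays. The median subset difference of these 2 tested markers was 0.21. The list averaged 4.42 to 4.51 on CD45RBlow arrays and 4.37 to 4.46 on CD45RBhigh arrays. The part of neutrophils in the Il1r2 and Il1rn values was not tested. In the averaged comparison between subsets no marker of macrophages, neutrophils, dendritic cells, mast cells and basophils or B cells passed. Nor did any marker of NK and CD8 T cells or of CD4 T cells. Even so, the mean of the NK and CD8 T cell list, in which only Cd8b1 did so by itself, separated the subsets as described above. So did that of the dendritic cell list, with 1 of 5 genes tested, at 4.26 to 4.32 on CD45RBlow arrays and 4.33 to 4.46 on CD45RBhigh arrays. Cd8b1, the dendritic cell marker Zbtb46 and the B cell marker Ms4a1 were lower on all CD45RBlow arrays, as were 8.13% of all tested genes.

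The signalling receptor for IL-1 was near the low end of the arrays. Il1r1, which transmits the IL-1 signal, was at 4.02 and 4.11 on the CCR2-/- CD45RBlow arrays, 3.99 and 3.79 on the CCR2-/- CD45RBhigh arrays, 4.79 and 4.16 on the wild-type CD45RBlow arrays and 3.87 and 3.76 on the wild-type CD45RBhigh arrays. Only wild-type CD45RBlow replicate 1 reached the filter. The CD45RBlow arrays were all above the CD45RBhigh arrays, though by as little as 0.03, and without the filter the averaged difference was 0.42 (interval 0.09 to 0.74, adjusted p = 0.224). Il1rap, the accessory chain shared by the receptors for IL-1, IL-33 and IL-36, was at 6.64 to 6.81 on CD45RBlow arrays and at 6.52 to 7.03 on CD45RBhigh arrays, with a difference of 0.01 (interval -0.28 to 0.30, adjusted p = 0.984). The interval leaves room for a change of up to 0.30 in either direction.

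In the mouse, 6 receptor genes of the family lie next to one another on chromosome 1 in the order Il1r2, Il1r1, Il1rl2, Il1rl1, Il18r1 and Il18rap. Their subset differences did not share a direction. Il1rl2, which encodes the IL-36 receptor and is no member of the list above, fell in CD45RBlow cells by 1.35 on the log2 scale (95% interval -1.84 to -0.85, adjusted p = 0.0263). It was at 5.73 and 6.19 on the CCR2-/- CD45RBlow arrays, against 7.14 and 7.12 on the CCR2-/- CD45RBhigh arrays. Wild-type cells had it at 5.15 and 5.98 on the CD45RBlow arrays, against 6.82 and 7.35 on the CD45RBhigh arrays. Thus within a cluster of adjacent genes the decoy IL-1 receptor was higher and the IL-36 receptor lower in CD45RBlow cells, on all arrays.

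**Figure D3:**
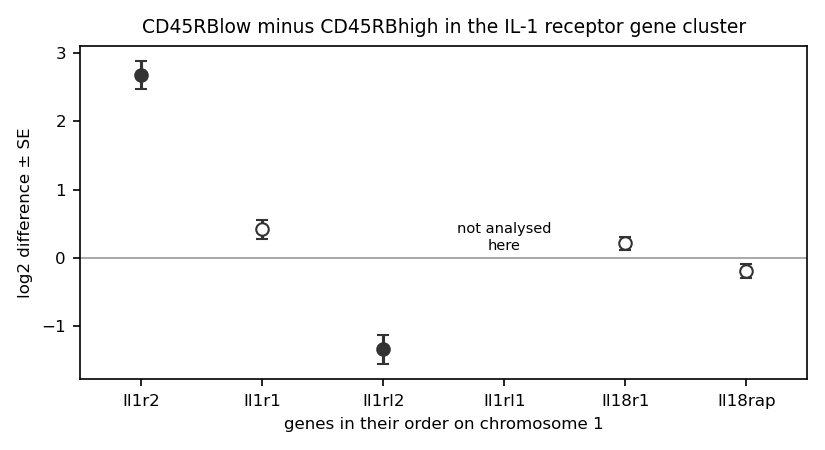
Log2 difference (CD45RBlow minus CD45RBhigh, averaged over CCR2-/- and wild-type cells, vertical axis) of adjacent receptor genes in their order on chromosome 1 (horizontal axis), with bars for 1 standard error and filled points for an adjusted p under 0.05. Il1r2 stood at 2.68 and Il1rl2 at -1.35; the values of Il1r1 and Il18rap come from the fit without the filter on low values, and Il1rl1 was not analysed here.

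Il1rn, the secreted or intracellular IL-1 receptor antagonist, was at 6.99 and 7.44 on the CCR2-/- CD45RBlow arrays, against 6.53 and 7.07 on the CCR2-/- CD45RBhigh arrays. The wild-type values were 7.09 and 7.24 on the CD45RBlow arrays, against 6.62 and 7.0 on the CD45RBhigh arrays. The subsets overlapped, but within each replicate number the CD45RBlow array was the higher in both genotypes, by 0.24 to 0.47. The averaged difference was 0.38 (interval -0.002 to 0.77, adjusted p = 0.277), and with the replicate number as a block its interval was 0.18 to 0.59 (adjusted p = 0.0565). The genotypes differed by 0.02 (interval -0.37 to 0.40, adjusted p = 0.995).

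The differences of the 7 tested members are drawn together in the plot of differences with their intervals. Apart from Casp1 and Casp4, all intervals for the genotype included 0 in the fit without the replicate block. With the block the Il1r2 interval excluded 0 in CD45RBlow cells (-0.87 to -0.20, adjusted p = 0.985) and averaged over the subsets (-0.61 to -0.13, adjusted p = 0.693). Its 4 genotype differences within replicate numbers were -0.43 and -0.65 in CD45RBlow cells and -0.17 and -0.24 in CD45RBhigh cells, all negative, and they did not pass in either fit.

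**Figure D4:**
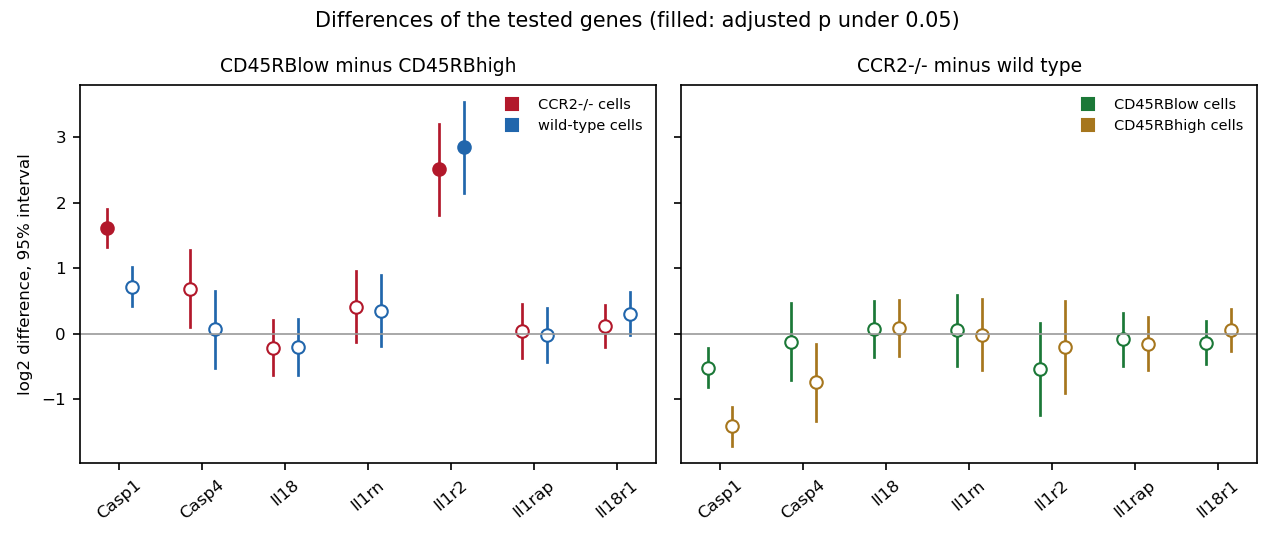
Log2 differences (vertical axis) of the 7 tested genes with 95% intervals from limma, on the left for CD45RBlow minus CD45RBhigh in CCR2-/- (red) and wild-type (blue) cells, on the right for CCR2-/- minus wild type in CD45RBlow (green) and CD45RBhigh (brown) cells, with filled points for an adjusted p under 0.05. Il1r2 (2.51 and 2.85) and, in CCR2-/- cells, Casp1 (1.62) passed between subsets, and Casp1 in CD45RBhigh cells (-1.42) lay farthest from 0 between genotypes without passing.

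The other genes of the pathway were taken from lists written with the same earlier results known. Of 8 further ligand genes, 4 were measured and 1, Il1a, was tested. Il1a encodes IL-1 alpha, which is active without caspase-1. It was at 7.45 and 4.99 on the CCR2-/- CD45RBlow arrays, against 4.10 and 4.79 on the CCR2-/- CD45RBhigh arrays. Wild-type cells had it at 7.32 and 6.78 on the CD45RBlow arrays, against 4.35 and 5.03 on the CD45RBhigh arrays. The CCR2-/- CD45RBlow arrays differed by 2.46 between replicates, and replicate 2 of that group lay under wild-type CD45RBhigh replicate 2. The averaged difference of 2.07 (interval 0.90 to 3.24) did not pass (adjusted p = 0.0792). Il1b, the main IL-1 substrate of caspase-1, was at 3.91 to 4.07 on all arrays, under the filter, and Il33 was at 4.16 to 4.48.

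Among 20 tested genes of IL-1 and IL-18 receptor signalling, 1 fell and 0 rose in CD45RBlow cells, with a median difference of -0.11. A count of 1 in 20 is no result about the list, since 1.93% of all tested genes fell and 1.10% rose. The gene that fell was Irak2, a kinase that acts downstream of MyD88, at 8.22 and 8.10 on the CCR2-/- CD45RBlow arrays, against 8.99 and 9.35 on the CCR2-/- CD45RBhigh arrays. In wild-type cells it was at 8.22 and 8.43 on the CD45RBlow arrays, against 8.74 and 9.01 on the CD45RBhigh arrays. Its difference was -0.78 (interval -1.05 to -0.50, adjusted p = 0.0218). Among the other receptors and inhibitors, Il1rl2 was the 1 of 3 tested that passed, and Sigirr, an inhibitory receptor of the family, differed by -0.17 (adjusted p = 0.500).

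Of 14 genes of inflammasome sensors, adaptor and gasdermin, 6 were tested, and 1 fell, against 1.93% of all tested genes, so that this count too says nothing of the list. Aim2, a sensor of cytosolic DNA, was at 8.42 and 8.37 on the CCR2-/- CD45RBlow arrays, against 9.35 and 9.02 on the CCR2-/- CD45RBhigh arrays. The wild-type values were 8.64 and 8.71 on the CD45RBlow arrays, against 9.14 and 9.23 on the CD45RBhigh arrays. Its difference was -0.65 (interval -0.88 to -0.43, adjusted p = 0.0191), opposite in sign to that of Casp1. Pycard, the adaptor ASC that joins sensors to caspase-1, was at 6.77 to 7.30 on all arrays, and Nlrp3 was under the filter at 4.11 to 4.41. None of the 4 tested genes of other caspases passed; the smallest p-values were those of Casp6 (0.84, adjusted p = 0.0950) and Casp9 (-0.25, adjusted p = 0.365). Between the genotypes, averaged over the subsets, no gene of these lists passed.

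**Figure D5:**
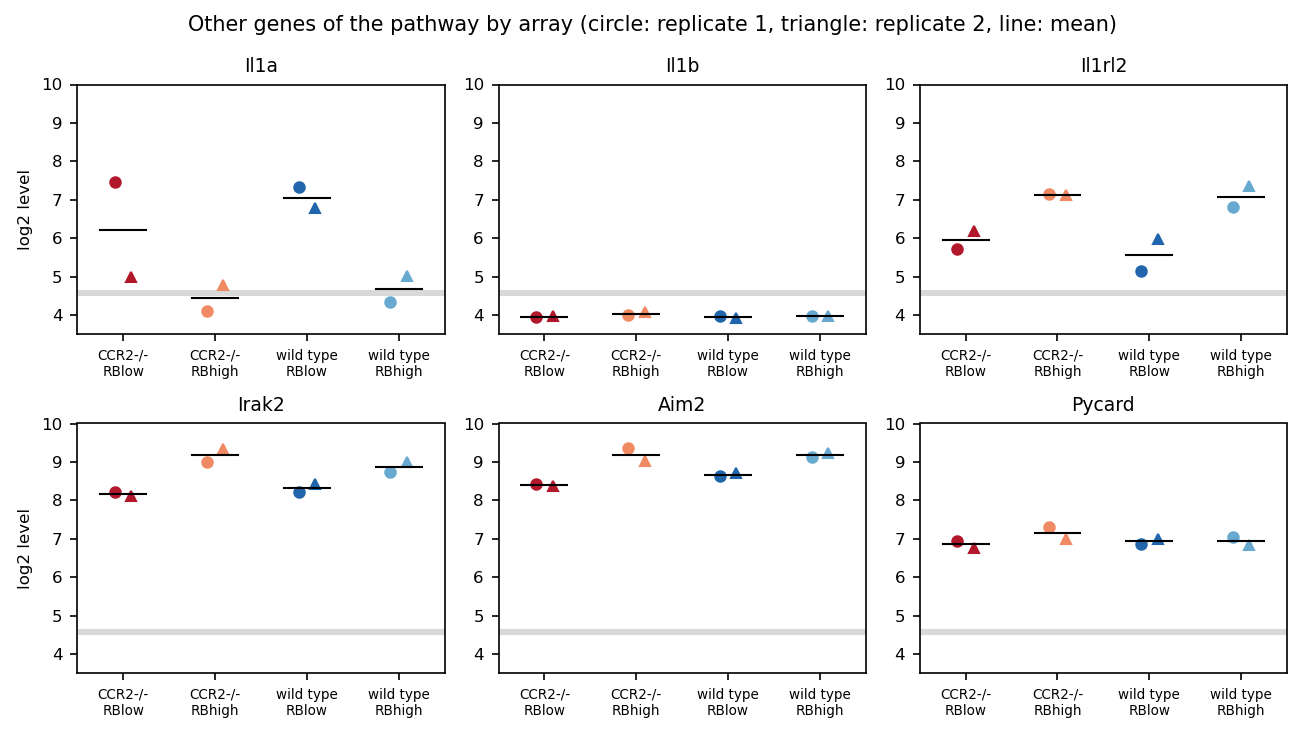
Log2 level (vertical axis) of 6 other genes of the pathway on each array of the CCR2-/- CD45RBlow, CCR2-/- CD45RBhigh, wild-type CD45RBlow and wild-type CD45RBhigh groups, with circles for replicate 1, triangles for replicate 2, black lines for means of 2 arrays and a grey band for the 40th percentile of the arrays (4.53 to 4.63). Il1rl2, Irak2 and Aim2 were lower on all CD45RBlow arrays than on all CD45RBhigh arrays, Il1a was above all CD45RBhigh arrays on 3 of the 4 CD45RBlow arrays, and Il1b stayed under the band.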

How the data were processed

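Each of 8 single-colour arrays was hybridised with labelled cDNA from 200 ng of total RNA of sorted, stimulated T cells, per the labels' protocols. The authors deposited log2 expression values of 41034 transcript clusters for which RMA and Partek are named per the submitters' processing notes; versions, options, genome build and annotation are not given in the sources used here. RMA gives all arrays a common distribution, so a shift shared by most genes would not show.

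Symbols came from the platform annotation (23521 clusters with 1 symbol, 1814 with several, left out, and 15699 unlisted), and 23328 entrez identifiers matched RefSeq GRCm38.p6. Groups and replicate numbers came from sample titles, with unnumbered samples taken as replicate 1. Limma 3.58.1 in R 4.3.3 fitted 1 mean per group over all 8 arrays (4 residual and 3.36 prior degrees of freedom), two-sided, with Benjamini-Hochberg adjustment over 13508 genes. The 7 comparisons were the subset effect (CD45RBlow minus CD45RBhigh) and the genotype effect (CCR2-/- minus wild type), each averaged and within strata, and their interaction. The calculation was tested on simulated data. The number of arrays limits the precision, with a median standard error of 0.15 for a difference between 2 groups. The differences of replicate 2 from replicate 1 correlated across genes between groups at r = 0.11 to 0.53 (6 pairs, all over 0.1). These numbers also differed in Xist, as given above. Equal numbers were taken as pairs only for differences within replicate numbers. The reported fit did not use the replicate number, so its intervals and p-values leave this pairing out. The fit with this number as a block is an alternative, given where it changes a call or moves a count by over 1.5 times. For the averaged subset difference of Il1r2 the standard error was 0.21 without the block and 0.10 with it. Alternatives were this block, no filter on low values, the mean of a gene's clusters, array weights, arrays centred on their medians and leaving out each array.

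The members and lists were chosen with earlier results of these data known. All members were named; of each list up to 4 genes that passed, or the 2 with the smallest p. Il1a is such a gene, whereas others were named for their role after their values had been seen. These are Il1b, Il33, Il18bp, Sigirr, Pycard, Nlrp3, Casp8, Casp12, Xist, Kdm5d and the markers of other cells. Likeness was Pearson's r over 8 arrays among tested genes, for Casp1, Il1r2 and any other member that passed, with 3 genes each. Coordinates are given for promoter windows only.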

Additional observations from a re-analysis of the deposited data

Results flagged for a closer look

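Both results here are of genes that reached the filter on 1 array only. The genotype difference of Il1r1 was negative in both replicates of CD45RBlow cells (-0.77 and -0.05) and positive in both replicates of CD45RBhigh cells (0.11 and 0.04), and the difference between the effects was -0.49. For Il18rap the genotype difference was likewise negative in both replicates of CD45RBlow cells (-0.02 and -0.02) and positive in both of CD45RBhigh cells (0.03 and 0.28), with a difference between the effects of -0.18. These opposite signs rest on the replicate numbers, and in the fit without the filter on low values neither difference passed (unadjusted p = 0.118 for Il1r1 and 0.426 for Il18rap, adjusted p = 0.99976 for both). The share of all genes with opposite signs of this kind was not counted. Groups of 2 arrays were too small for a test of single outlying arrays.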

How the results depend on the processing

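In the averaged comparison between subsets, Casp1 and Il1r2 passed in the fit as reported and in all of its alternatives, and leaving out single arrays gave 2 to 3 members. Within CCR2-/- cells 2 members passed, 1 with array weights (Casp1), and 0 to 2 without single arrays. Within wild-type cells 1 member passed, 2 with array weights (Casp1 and Il1r2), and 0 to 1 without single arrays. In the genotype comparisons and the interaction, 0 members passed under each alternative run. With the replicate block, 758 genes passed between subsets on average, against 409, 196 against 45 in CCR2-/- cells and 104 against 12 in wild-type cells; it changed no call of a member. Array weights gave 7 genes in CCR2-/- and 116 in wild-type cells, and centring gave 83 and 24. Without single arrays these counts ran from 39 to 547, 1 to 98 and 1 to 57; fewer arrays leave fewer degrees of freedom, and an array left alone in its group was assumed to vary like the others. The differences of members changed sign only where they had not passed. With the mean of a gene's clusters the genotype difference of Il1rap became 0.038 averaged, 0.060 in CD45RBlow and 0.016 in CD45RBhigh cells. That mean takes in 2 dimmer clusters with averaged genotype differences of 0.08 and 0.15, against -0.12 for the cluster used. With centring the genotype difference of Il1rn became -0.034 averaged and -0.0048 in CD45RBlow cells, and the cause of that change was not tested. Without single arrays the subset effect ran from -0.12 to 0.14 for Il1rap averaged, -0.062 to 0.15 for Il1rap and -0.43 to 0.0014 for Il18 in CCR2-/- cells, and -0.11 to 0.25 for Casp4 and -0.27 to 0.23 for Il1rap in wild-type cells. The averaged genotype effect ran from -0.25 to 0.0065 for Il1rap, -0.026 to 0.19 for Il18, -0.12 to 0.042 for Il18r1 and -0.12 to 0.15 for Il1rn. In CD45RBlow cells it ran from -0.14 to 0.29 for Il18, -0.30 to 0.030 for Il18r1 and -0.18 to 0.27 for Il1rn. In CD45RBhigh cells it ran from -0.40 to 0.10 for Il1rap, -0.11 to 0.29 for Il18, -0.012 to 0.12 for Il18r1 and -0.28 to 0.26 for Il1rn. The interaction ran from -0.73 to 0.058 for Il1r2, -0.19 to 0.32 for Il1rap, -0.23 to 0.20 for Il18 and -0.21 to 0.33 for Il1rn. Of 245 single-gene values under the other alternatives, 238 kept direction and call. Of 392 single-gene values without single arrays, 36 changed direction. Il18, Il1r1 and Il18rap lay near the low end of the arrays, where the effect of low signal on a difference was not tested.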

Other observations

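Il1rap had 2 dimmer transcript clusters besides the one used, with mean log2 levels of 4.49 and 4.13, and their averaged differences between CD45RBlow and CD45RBhigh cells were 0.03 and -0.02. Their averaged genotype differences were 0.08 and 0.15, opposite in sign to the -0.12 of the cluster used. Every other member had a single cluster. Casp6, an executioner caspase, was at 10.8 and 10.4 on the CCR2-/- CD45RBlow arrays, against 9.66 and 9.40 on the CCR2-/- CD45RBhigh arrays, and at 10.5 and 10.5 on the wild-type CD45RBlow arrays, against 10.5 and 9.45 on the wild-type CD45RBhigh arrays. Its low value on wild-type CD45RBhigh replicate 2 stood apart from replicate 1 of that group by 1.01, and its difference between subsets did not pass. Casp8, an initiator caspase of death receptors, was at 11.8 to 11.9 on all arrays, and Casp12, next to Casp4 on chromosome 9, was under the filter on all of them.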
